A study of Mus musculus with 229 samples.

Results

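Apoe, Apod, Clu, Lpl, Abca1, Trem2, Fabp5 and Ptgds are 8 mouse genes of lipid carriage, uptake and lipid-derived signals, and all 8 had a row in each of the 6 expression tables analysed here. They were chosen by name, as 8 of 20463 gene rows in the dpi 25 tumour table, of 27933 in the dpi 35 tumour table, of 22105 in the PDGFRa-GFP table and of 25993 in the hGFAP-GFP table. The single-cell tables from C1 chips held 46523 rows for PDGFRa-GFP and 24279 for hGFAP-GFP. The choice was made with the levels of these genes by library and cell class known, so every level and ratio below is a description and carries no test. The name of the group fits 6 of the genes closely. Apod and Ptgds are lipocalins, small secreted proteins that bind lipids, and Ptgds is also an enzyme.

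Mouse glioblastomas of the cortex region were sampled at dpi 25 by Drop-seq and at dpi 35 on the 10x platform, with 1 library each. The labels do not expand dpi and name no driver of the tumours, and their only genotype entry is GBM at dpi 35. Cortex cells sorted for GFP, with dead cells removed, came from PDGFRa-GFP mice, where GFP follows the promoter of a receptor of oligodendrocyte precursor cells (OPCs), and from hGFAP-GFP mice, where it follows a human promoter used by astrocytes and neural progenitors. Genotypes were labelled PDGFRa normal with PDGFRa-gfp and hGFAP normal with hGFAP-gfp, at stages P1-3 and P5-6. On C1 chips, the PDGFRa-GFP strain gave 53 single cells of P6 and 60 of P3, while 61 of P4/P6 and 49 of P3 were from hGFAP-GFP. The titles were followed where the C1 strain entry and the stage entries of the chromatin samples differ from them. Open chromatin of PDGFRa-GFP cells, embryonic (E14.5) and P5 by title, was given as 1 pooled list.

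The dpi 25 library held 4955 cells and 11544233 UMIs (single RNA molecules counted once), the dpi 35 library 6054 cells and 51194749 UMIs, the PDGFRa-GFP library 3184 cells and 8166699 UMIs, and the hGFAP-GFP library 815 cells and 4196024 UMIs. Median UMIs per cell were 2063, 6582, 2014 and 4167 in that order, and no cell barcode was shared between libraries. Each group has 1 library, and the labels name no animals. Levels are in CPM, a gene's UMIs per 1000000 UMIs of the summed library or class, and the 95% intervals are exact for counting error and leave out any spread among animals. In summed libraries, fewer cells of a type and less RNA per cell cannot be told apart. Classes of the droplet libraries were named from marker genes after clustering without the 8 genes, and clusters are described by some of their leading genes. All classes are called -like. Among classes of at least 50 cells, between 17 and 26 markers of the own list, of 20 to 28, were seen in at least 10% of cells in the myeloid-, oligodendrocyte- and tumour-like classes. For the tumour list this count does not set the class apart. Of its 20 markers, tumour-like cells showed 17 at dpi 25 and 19 at dpi 35. Mural- or fibroblast-like cells at dpi 35 also showed 19, and OPC-like cells of PDGFRa-GFP and hGFAP-GFP 13 and 14. The astrocyte-like class of hGFAP-GFP showed 24 of 25 astrocyte markers. Whether a tumour-like cell is malignant was not measured.

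Brain cells exchange cholesterol and other lipids as lipoprotein particles built around apolipoproteins, which astrocytes and microglia secrete after a transporter loads them with lipid. Receptors and lipases on the receiving cells take the lipid up, and binding proteins move fatty acids inside the cell. Phagocytes that clear myelin or dying cells carry a large lipid load and are known for raising genes of this system.

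Promoter sequences are shown for Abca1, Apoe and Ptgds, where an open interval overlaps the window, and for Trem2, where none does, taken from RefSeq on GRCm38.p6, each from 250 bases before to 50 bases after a start, read 5′ to 3′ on the gene's strand. Abca1 lies on chr4:53159846-53160145 (minus strand), Apoe on chr7:19699139-19699438 (minus strand, the third of 3 starts in the table), Trem2 on chr17:48346151-48346450 (plus strand) and Ptgds on chr2:25469700-25469999 (minus strand). Capitals mark matches on either strand to TATAAA, an element near the start of many genes, to the E-box CACGTG, to the Sp-family element GGGCGG, to AGGTCA of nuclear receptors and to TTGGCAA of nuclear factor I.
Abca1: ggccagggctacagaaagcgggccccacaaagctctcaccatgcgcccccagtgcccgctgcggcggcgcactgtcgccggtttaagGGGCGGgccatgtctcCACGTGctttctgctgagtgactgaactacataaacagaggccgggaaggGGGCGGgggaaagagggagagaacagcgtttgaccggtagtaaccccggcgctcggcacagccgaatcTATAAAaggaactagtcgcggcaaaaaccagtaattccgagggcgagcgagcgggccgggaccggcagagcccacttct
Apoe: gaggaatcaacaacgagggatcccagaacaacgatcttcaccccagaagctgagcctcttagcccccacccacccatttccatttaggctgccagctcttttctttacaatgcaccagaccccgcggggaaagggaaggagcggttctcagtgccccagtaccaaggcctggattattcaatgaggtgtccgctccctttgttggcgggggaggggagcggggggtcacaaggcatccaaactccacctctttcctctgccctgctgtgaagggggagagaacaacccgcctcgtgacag
Trem2: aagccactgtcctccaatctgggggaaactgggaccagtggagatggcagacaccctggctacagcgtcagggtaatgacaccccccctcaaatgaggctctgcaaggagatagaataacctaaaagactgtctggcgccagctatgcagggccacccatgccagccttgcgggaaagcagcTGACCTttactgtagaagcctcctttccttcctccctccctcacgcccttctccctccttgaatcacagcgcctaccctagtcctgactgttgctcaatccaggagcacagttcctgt
Ptgds: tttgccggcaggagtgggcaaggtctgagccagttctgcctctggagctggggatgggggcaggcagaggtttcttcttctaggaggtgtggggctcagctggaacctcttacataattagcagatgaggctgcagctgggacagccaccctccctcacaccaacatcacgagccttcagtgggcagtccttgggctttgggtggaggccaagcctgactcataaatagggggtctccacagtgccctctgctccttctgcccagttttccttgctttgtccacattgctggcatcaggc

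The Abca1 promoter held GGGCGG at -163 and -97, CACGTG at -147 and TATAAA at -29 relative to the start. Of 32817 promoters of the same length, 35.6% held GGGCGG, 7.15% CACGTG and 13.6% TATAAA. The Trem2 promoter held TGACCT, the other strand of AGGTCA, at -68, and 16.3% of promoters held this motif on either strand. No match stood in the printed windows of Apoe and Ptgds, which says only that these letters are absent there. TTGGCAA was in 3.8% of promoters and in none of the printed ones. GC content was 62.7% for Abca1, 57.7% for Apoe, 56% for Trem2 and 57.7% for Ptgds, against a median of 52.7% over all promoters.

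In the pooled open chromatin list of PDGFRa-GFP cells, 6 of the 8 genes had an interval within 2 kb of a start, and all 6 had one with a q value of 0.05 or less. Over the 27025 genes of the promoter table the same held for 52.9% with any interval and for 48.7% with one at that q value. Where no promoter entry was matched, as for Fabp5, Lpl and Clu, either end of the gene was taken as a start. The strongest interval lay at Fabp5, which encodes a fatty acid binding protein, with a deposited fold over background of 11.6 and a -log10 q of 19.3 at chr3:10011868-10013806. Abca1 followed with a fold of 8.59 and a -log10 q of 11.8 at chr4:53158731-53160255, an interval that covers the whole sequence printed above. Clu and Ptgds both reached a fold of 5.06 and a -log10 q of 4.29, Lpl 4.04 and 2.51, and Apoe 3.54 and 1.71. The median -log10 q of all 93170 summits was 2.51, so the intervals of Lpl and Apoe were at or under the middle of the list. Apod and Trem2 had no interval, and both were near 0 in most PDGFRa-GFP cells. The list pools the embryonic and P5 samples, which cannot be compared from it.

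Apoe, the main lipid carrier of brain lipoproteins, was at 2193 CPM in the dpi 25 library (95% interval 2166 to 2220) and 10596 in the dpi 35 library (10567 to 10624), against 446.2 in PDGFRa-GFP (431.8 to 460.9) and 1806 in hGFAP-GFP (1766 to 1847). The dpi 35 level comes from 10x chemistry and is set beside the Drop-seq levels without a ratio. Apod, a lipocalin carrier of fatty acids, stood at 365.6 and 481.8 in the dpi 25 and dpi 35 libraries, against 17.4 for PDGFRa-GFP and 1.19 for hGFAP-GFP, where 5 UMIs were seen. Clu, a secreted chaperone that is also found on lipoproteins, was at 44.1 and 107.4 in the tumours, against 103.8 and 144.2 in the PDGFRa-GFP and hGFAP-GFP libraries. Apod, Lpl and Trem2 were at least 2-fold higher in the dpi 25 tumour than in both cortex libraries. Apoe and Abca1 were so over PDGFRa-GFP only, and Ptgds over hGFAP-GFP only. These are 5 genes over PDGFRa-GFP and 4 over hGFAP-GFP, beside 16.6% and 17.3% of all genes compared.

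Abca1, the transporter that loads cholesterol onto apolipoproteins, was at 41.4 and 139.0 CPM in the dpi 25 and dpi 35 libraries, against 14.6 for PDGFRa-GFP and 35.7 for hGFAP-GFP. Lpl, the secreted lipase that frees fatty acids from lipoproteins, was at 35.8 and 203.5 in the tumours, against 14.2 and 4.05 in the PDGFRa-GFP and hGFAP-GFP libraries. Trem2, a lipid-sensing receptor of microglia and macrophages, was at 56 and 643.2, against 3.31 from 27 UMIs in PDGFRa-GFP and 0.477 from 2 UMIs in hGFAP-GFP. These 3 genes were lowest in the cortex libraries, with intervals that did not reach those of the dpi 25 library apart from Abca1 in hGFAP-GFP, at 30.3 to 41.9 against 37.8 to 45.3 at dpi 25. Fabp5 was at 394.6 and 879.9 in the tumours, against 390.4 for PDGFRa-GFP and 562.2 for hGFAP-GFP. Ptgds, the prostaglandin D2 synthase of brain and meninges, was at 116.8 and 130.3, against 179.3 for PDGFRa-GFP and 11.9 for hGFAP-GFP. The levels of Fabp5 spanned the least and those of Apod and Trem2 the most.

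**Figure D1:**
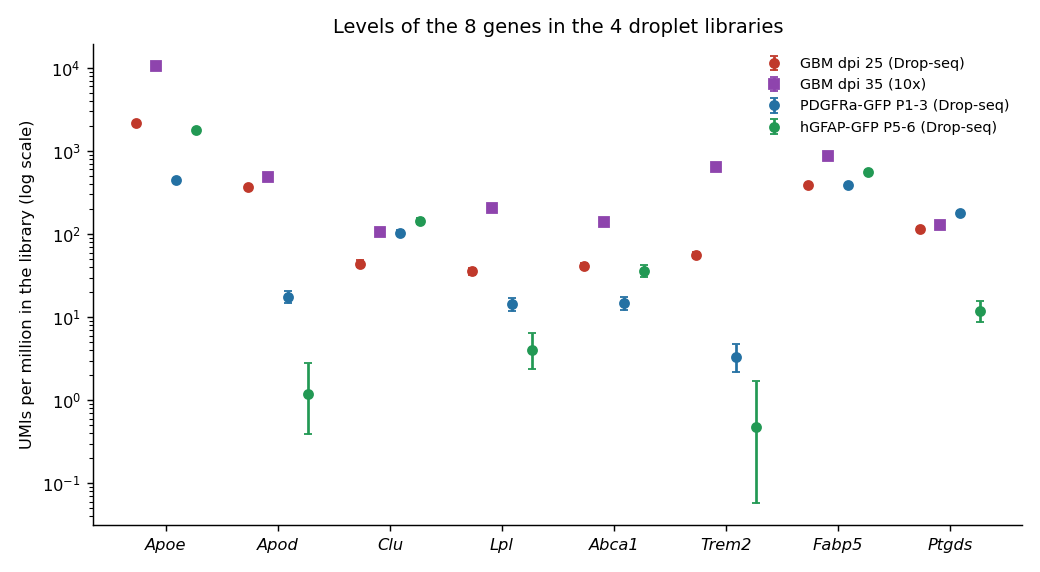
Summed level of each gene in the 4 droplet libraries, in CPM on a log axis, with exact 95% counting intervals. Trem2 runs from 0.477 in hGFAP-GFP to 643.2 at dpi 35, while Fabp5 stays between 390.4 and 879.9.

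Few cells carried most of the UMIs of several genes. In the PDGFRa-GFP library 1 mural- or fibroblast-like cell held 995 of the 1464 Ptgds UMIs, which is 68%. The 12 cells of that class together held 1025 of the Ptgds UMIs and 123 of the 142 Apod UMIs. Trem2 had 26 of its 27 UMIs in the library's 6 myeloid-like cells, and 1 of these cells held 34 of the 116 Lpl UMIs. Summed over these 6 cells, Trem2 was at 750.5 CPM (490.2 to 1100) and Lpl at 1068 (752.0 to 1472). The PDGFRa-GFP levels of Ptgds, Apod and Trem2 thus rest on rare cells in a library sorted for GFP. In the dpi 25 tumour, the cell with the most Ptgds was oligodendrocyte-like and held 19.8% of the library's Ptgds UMIs.

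Apoe was highest in myeloid-like cells, microglia and macrophages among them, in both tumours. It reached 26842 CPM in the 348 myeloid-like cells at dpi 25 (26499 to 27189), against 177.3 in the 4401 tumour-like cells (169.2 to 185.7). At dpi 35 the 2590 myeloid-like cells were at 20268 and the 2232 tumour-like cells at 745.1. The ratios of 151.4-fold and 27.2-fold are far beyond counting error. Naming each cell by its own markers instead of by cluster raised the dpi 35 tumour-like level to 1637. The summed level of the 28 myeloid markers in tumour-like cells was 0.683% of that in myeloid-like cells at dpi 25, and Apoe was 0.661%. At dpi 35 the marker sum was 2.24% and Apoe 3.68%. The marker sum was 282.2 CPM in tumour-like cells at dpi 25, beside 189.1 and 377.1 in OPC-like cells of PDGFRa-GFP and hGFAP-GFP. No class was named myeloid-like in hGFAP-GFP, so a sum of this size cannot be read as free RNA. The part of free RNA in the Apoe of tumour-like cells was not tested.

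Outside the myeloid-like cells, Apoe stood at 10557 in the 99 ependymal-like cells at dpi 35, 5900 in the 195 astrocyte-like cells of hGFAP-GFP, 3827 in the 60 ependymal-like cells of the same library and 3522 in the 53 choroid plexus-like cells of PDGFRa-GFP. The intervals of these last classes, 3608 to 4055 and 3298 to 3757, overlapped. OPC-like cells of PDGFRa-GFP had 228.6 and those of hGFAP-GFP 318.4, and neuronal-like cells were lower still, at 54 and 192.9. Myeloid-like cells were 7.02% of the dpi 25 library and 42.8% of the dpi 35 library. Another 485 cells at dpi 35 stayed unnamed, with Apoe at 9449, and 2 of their 3 clusters were led by myeloid genes. Of the classes under 50 cells, the 38 astrocyte-like cells of PDGFRa-GFP had 10996 and the 16 of dpi 35 had 18376. The 6 myeloid-like cells of PDGFRa-GFP had 13134 (11954 to 14398).

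Clu had another order, led among classes of at least 50 cells by those that line fluid spaces. It was at 3712 in ependymal-like cells at dpi 35, 2102 in choroid plexus-like cells of PDGFRa-GFP and 881.3 in ependymal-like cells of hGFAP-GFP. Astrocyte-like cells of hGFAP-GFP followed with 296.4 (263.2 to 332.7). The small astrocyte-like classes were above that astrocyte-like level, at 2443 in the 16 cells of dpi 35 and 717.5 in the 38 cells of PDGFRa-GFP. Myeloid-like cells were low, with 8.07 at dpi 25 and 22.4 at dpi 35, against 48.1 and 74.3 in the tumour-like cells of these libraries. Clu was lower in myeloid-like than in tumour-like cells by 5.97-fold at dpi 25 and 3.31-fold at dpi 35, and Ptgds was lower too, by 9.46-fold and 2.28-fold. The dpi 25 folds rest on 7 myeloid-like UMIs of Clu (log2 ratio -2.58, interval -3.90 to -1.52) and 2 of Ptgds (-3.24, -6.30 to -1.37). Tumour-like Ptgds at dpi 25 was 0.383% of the oligodendrocyte-like level, beside 1.86% for the oligodendrocyte marker sum. The part of free RNA in it was not tested.

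The astrocyte-like cells of hGFAP-GFP split into a pair of clusters that differed in all of Apoe, Clu, Abca1 and Fabp5. In the 117 cells led by Aqp4, Id3 and Aldoc, Apoe was at 9119, Clu at 478.5, Abca1 at 123.2 and Fabp5 at 1459. In the 78 cells led by Vps8, Id3 and Lrrc17, the same genes were at 1555, 50.6, 19.3 and 624.3. At a Leiden resolution of 0.5, the class's Apoe level was 8805 and its Clu level 458.7.

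Apod and Ptgds, the lipocalins, followed the oligodendrocytes in the tumours. Apod was at 19497 in the 78 oligodendrocyte-like cells at dpi 25 and 7064 in the 326 at dpi 35, against 12.9 and 20.9 in tumour-like cells. Ptgds was at 5697 and 1945 in these oligodendrocyte-like cells, against 21.8 and 19.6 in tumour-like cells. The class mixes mature with newly formed cells, and both genes were high in the mature ones. At dpi 25 the 39 cells led by Mal, Mag and Mog, genes of myelin, had 39470 of Apod and 11384 of Ptgds. The 39 cells led by Enpp6, a gene of newly formed oligodendrocytes, had 50.1 and 160.2. At dpi 35 the 99 cells led by Mal, Klk6 and Mog had 22035 and 5464, against 20.2 and 289.9 in the 227 cells led by Enpp6 and Gpr17.

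The 78 oligodendrocyte-like cells of PDGFRa-GFP were led by Gpr17, Enpp6 and Bmp4 and had only 21.5 of Apod and 17.2 of Ptgds. No cluster led by Mal or Mog was found there, so oligodendrocyte-like levels of the tumours and the cortex are given side by side without a ratio. When each cell was named by its own markers, the dpi 25 class levels were lower, at 5556 for Apod and 1658 for Ptgds. Apod was also seen in endothelial-like cells, at 569.6 in the 84 cells at dpi 25 and 572.3 in the 230 at dpi 35, with overlapping intervals. The oligodendrocyte marker sum in these endothelial-like cells was 0.894% and 2.27% of that in oligodendrocyte-like cells, and their Apod was 2.92% and 8.1% of the Apod there. The oligodendrocyte-like class mixes mature and newly formed cells, which differ in Apod. The part of free RNA in the Apod of endothelial-like cells was not tested. For Ptgds, endothelial-like cells were at 7.45 and 6.48, and choroid plexus-like cells of PDGFRa-GFP at 850.9.

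**Figure D2:**
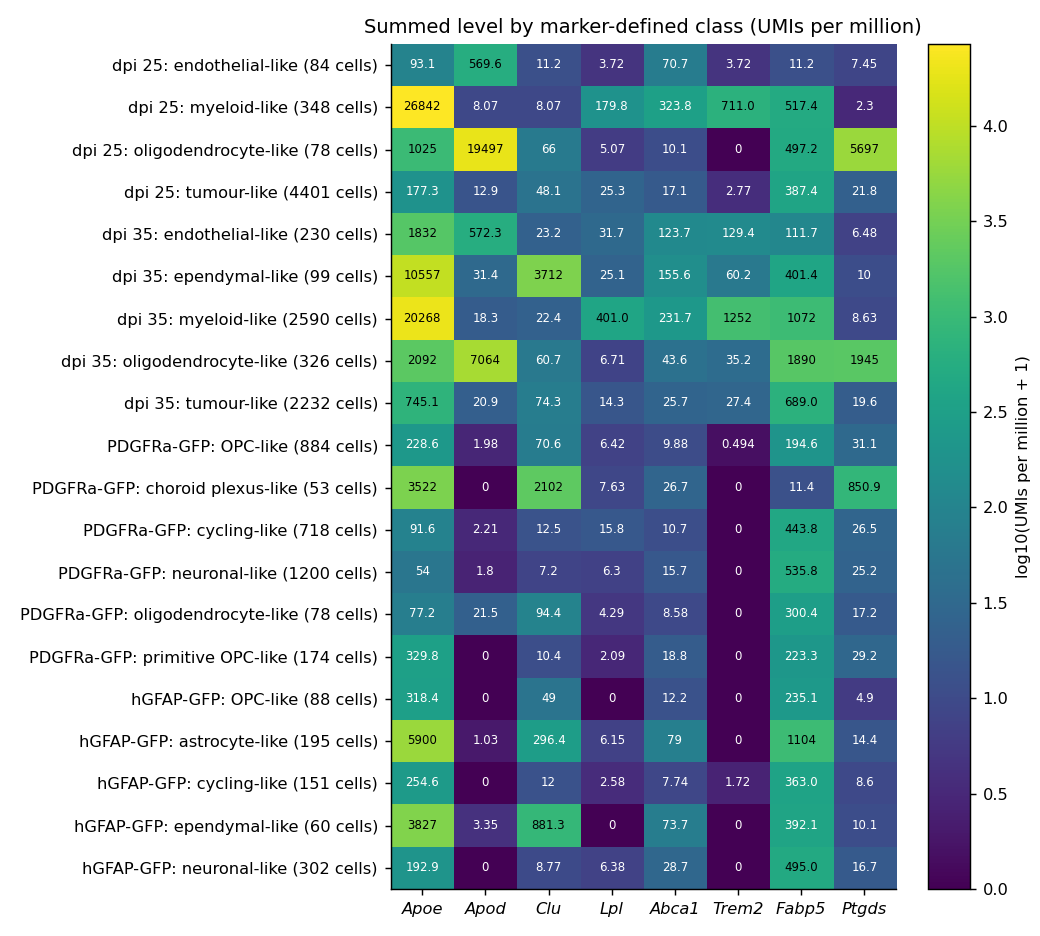
Summed level of the 8 genes in each marker-defined class of at least 50 cells, in CPM, with colour on a log10 scale of level plus 1. Apoe, Trem2, Lpl and Abca1 are highest in myeloid-like rows of the tumours, Apod and Ptgds in oligodendrocyte-like rows and Clu in ependymal- and choroid plexus-like rows.

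Trem2 was nearly limited to myeloid-like cells, which held 95.5% of its UMIs at dpi 25 and 89% at dpi 35, where the unnamed cells held 7.34%. Its level was 711.0 in myeloid-like cells at dpi 25 (656.0 to 769.4), against 2.77 in tumour-like cells (1.84 to 4.01). At dpi 35 it was 1252 in myeloid-like cells, against 27.4 in tumour-like cells. In the dpi 25 library 73.3% of myeloid-like cells had a Trem2 UMI, against 0.591% of tumour-like cells, at median depths of 2162 and 2042 UMIs, and 47.4% against 0.25% once each cell was thinned to 1000 UMIs. At dpi 35 these shares were 94% and 16.5%, at median depths of 7232 and 5973, and the thinned shares 64.5% and 3.18%. Endothelial-like cells of that library had a share of 43.5% at a median depth of 12669 and 9.57% when thinned, with up to 35 Trem2 UMIs in a cell.

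Outside the myeloid-like cells of dpi 35, endothelial-like cells had 129.4 of Trem2, which was 10.3% of the myeloid-like level, beside a myeloid marker sum of 9.5%. In tumour-like cells Trem2 was 2.19% and the marker sum 2.24%, and in the 16 astrocyte-like cells these were 15.4% and 8.46%. The parts of free RNA and of doublets (cells caught together), which were kept, in these Trem2 values were not tested. Naming each cell by its own markers put the Trem2 level at 66.6 in tumour-like cells and 125.1 in oligodendrocyte-like cells of dpi 35, against 27.4 and 35.2 by cluster. In hGFAP-GFP the astrocyte-like cells had 0 Trem2 UMIs, where 3 UMIs would be a level of 3.08.

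Lpl was also led by myeloid-like cells, with 179.8 at dpi 25 and 401.0 at dpi 35, against 25.3 and 14.3 in tumour-like cells. Tumour-like cells, 88.8% of the dpi 25 cells, still held 61.7% of its Lpl UMIs. Their Lpl was 14.1% of the myeloid-like level at dpi 25, beside 0.683% for the myeloid markers, and 3.57% at dpi 35, beside 2.24%. At dpi 25 the tumour-like level was 3.93-fold above that of the 884 OPC-like cells of PDGFRa-GFP, 25.3 against 6.42, with 13 UMIs in the OPC-like cells (log2 ratio 1.98, interval 1.18 to 2.91). Alternatives put the OPC-like level between 5.5 and 9.9, and the 718 cycling-like cells of PDGFRa-GFP, a kind of cell that the tumour-like class includes, had 15.8.

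Abca1 was at 323.8 and 231.7 in the myeloid-like cells of dpi 25 and dpi 35, against 17.1 and 25.7 in tumour-like cells. Ependymal-like cells at dpi 35 had 155.6 and endothelial-like cells 123.7, with overlapping intervals. The 16 astrocyte-like cells of dpi 35 had 261.4 (165.7 to 392.2), an interval that holds the myeloid-like level there. The 38 astrocyte-like cells of PDGFRa-GFP had 46.6 (15.1 to 108.7). The astrocyte-like cells of hGFAP-GFP had 79, ependymal-like cells of that library 73.7, and OPC-like cells 12.2. Abca1 was thus spread over more classes than Trem2 and Lpl. Among the dpi 25 tumour-like clusters it was highest in the 776 cells led by Cdkn2b and Rasl11a, at 45.5, where Apoe was also highest at 411.0.

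Fabp5 had no single class. At dpi 35 it stood at 1890 in oligodendrocyte-like cells, 1072 in myeloid-like cells and 689.0 in tumour-like cells. Astrocyte-like cells of hGFAP-GFP were at 1104, with an interval of 1039 to 1172 that overlapped that of the dpi 35 myeloid-like cells, 1058 to 1085. Neuronal-like cells had 535.8 in PDGFRa-GFP and 495.0 in hGFAP-GFP, and OPC-like cells 194.6 and 235.1. Tumour-like cells at dpi 25 were at 387.4, which was 1.99-fold above the OPC-like cells of PDGFRa-GFP (log2 ratio 0.99, interval 0.84 to 1.15). Tumour-like cells include clusters with cell cycle genes, which form a separate cycling-like class in the cortex, and the 718 such cells of PDGFRa-GFP had 443.8. Tumour-like clusters at dpi 35 also differed, with 1999 in the 169 cells led by Adm, and with Vegfa and Bnip3, genes of the response to low oxygen, also among their leading genes. The 142 cells led by heat shock genes such as Hspa1a had 283.7.

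Myeloid-like cells at dpi 35 were not uniform in these genes. Apoe was 8.84-fold higher in the 370 cells led by Cd74 and Ms4a7, at 40583, than in the 138 cells led by Plac8 and Chil3, genes of blood monocytes, at 4590. Trem2 was at 1789 in the 773 cells led by P2ry12 and Tmem119, genes of resting microglia, and at 99.6 in the Plac8 cells. Lpl reached 781.2 in the 451 cells led by Spp1, Hmox1 and Gpnmb, against 34.5 in the Plac8 cells. Fabp5 was also highest in the Spp1 cells, at 2289, and lowest in the P2ry12 cells, at 159.0. The Plac8 cells were lowest for Apoe, Trem2, Lpl and Abca1, while the P2ry12 cells, high in Trem2, were lowest for Fabp5.

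**Figure D3:**
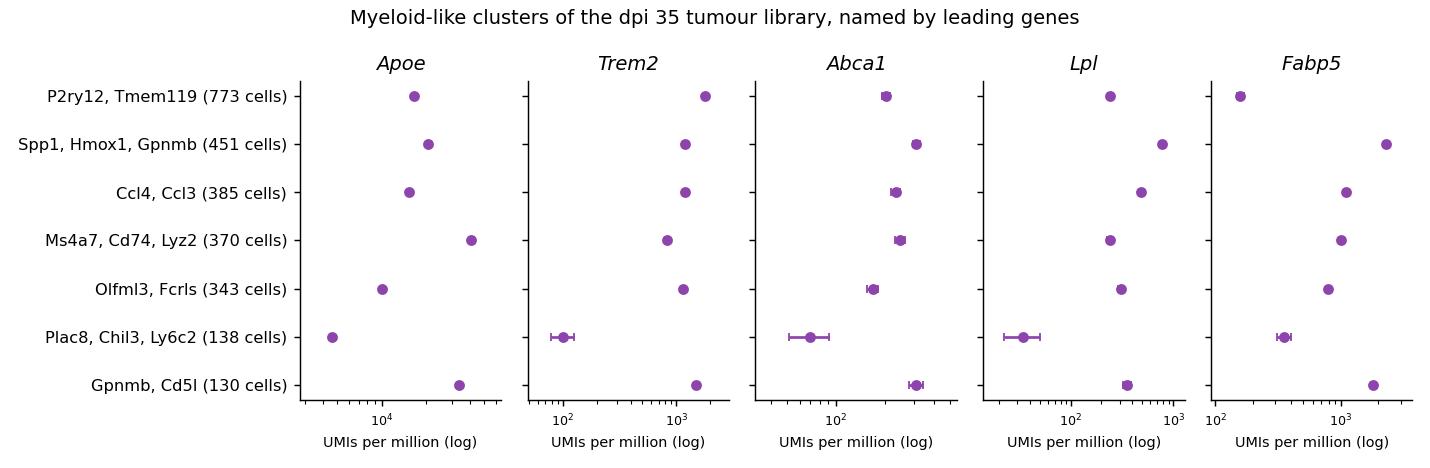
Level of 5 genes in the 7 myeloid-like clusters of the dpi 35 library, in CPM on log axes, with exact 95% counting intervals. The Plac8 cells lie lowest for Apoe, Trem2, Abca1 and Lpl, and the Spp1 cells lie highest for Lpl and Fabp5.

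Between Drop-seq libraries, 5 of the 8 genes were at least 2-fold higher in the dpi 25 tumour than in PDGFRa-GFP and 1 was at least 2-fold lower, where 16.6% and 16.8% of 14300 genes were. The members' median log2 ratio was 1.42, and that of all genes -0.01. Apod had a log2 ratio of 4.39 (4.15 to 4.65), Trem2 4.08 (3.53 to 4.69), Apoe 2.30 (2.25 to 2.35), Abca1 1.51 (1.21 to 1.81) and Lpl 1.33 (1.03 to 1.64). Clu was lower, at -1.24 (-1.40 to -1.08). Fabp5 was at 0.02 (-0.05 to 0.08) and Ptgds at -0.62 (-0.73 to -0.51).

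Several of these ratios depended on which cells were summed. Without myeloid-like cells in either library, Apoe was lower in the tumour, at -1.05, Abca1 was at 0.42, and 3 genes were at least 2-fold higher and 2 lower. Without choroid plexus- and ependymal-like cells Clu was at 0.23. Without the cell richest in Ptgds in each library, its ratio was 0.70, and without mural- or fibroblast-like cells 1.13. Apod, which was at 7.27 without mural- or fibroblast-like cells, and Lpl were higher in the tumour without each of these classes. Trem2 had 1 UMI left in PDGFRa-GFP without myeloid-like cells, so no ratio is read there. These alternatives were chosen after the data were seen, except that without choroid plexus- and ependymal-like cells.

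Against hGFAP-GFP, 4 genes were at least 2-fold higher at dpi 25 and 1 was lower, beside 17.3% and 20.6% of 14236 genes. The median log2 ratio was 1.71 for the members and 0.01 for all genes. Apod was at 8.26 (7.04 to 9.88), Trem2 at 6.88 (5.02 to 9.92), Ptgds at 3.29 (2.89 to 3.73) and Lpl at 3.14 (2.45 to 3.94). Clu was at -1.71 (-1.88 to -1.54), or -0.99 without choroid plexus-, ependymal- and erythroid-like clusters, which left 0 members at least 2-fold lower. Fabp5 was at -0.51 (-0.58 to -0.44) and Abca1 at 0.21 (-0.06 to 0.49), or -0.95 without myeloid-like cells. Apoe was at 0.28 (0.24 to 0.32) over all cells, -3.25 without myeloid-like cells, and -0.09 when each cell was thinned to 1000 UMIs. The comparisons with the cortex libraries share the dpi 25 library.

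**Figure D4:**
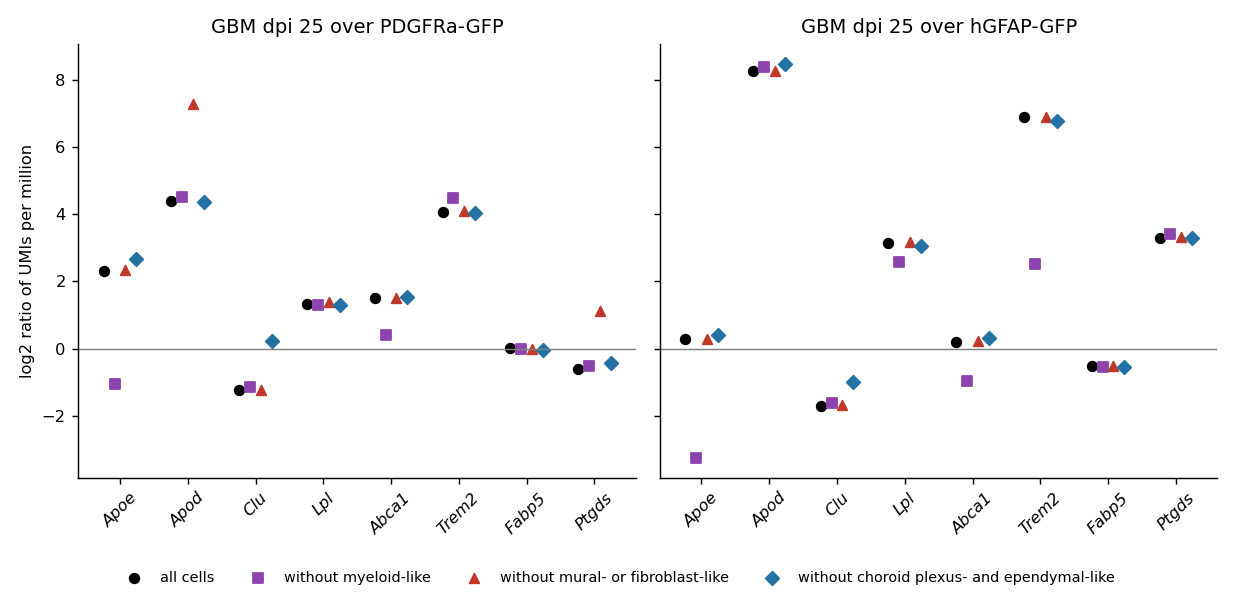
Log2 ratio of each gene in the dpi 25 tumour over PDGFRa-GFP on the left and over hGFAP-GFP on the right, for all cells and with 1 kind of class left out of both libraries. Apoe goes below 0 without myeloid-like cells, and Clu and Ptgds over PDGFRa-GFP go above 0 without choroid plexus- and ependymal-like or mural- or fibroblast-like cells.

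Between the cortex libraries, 4 genes were at least 2-fold higher in PDGFRa-GFP than in hGFAP-GFP and 2 were at least 2-fold lower, beside 5.03% and 12.8% of 13607 genes. The median log2 ratio was 0.67 for the members and 0.04 for all genes. Ptgds was at 3.91 (3.50 to 4.35), Apod at 3.87 (2.61 to 5.51), Trem2 at 2.79 (0.80 to 5.91) and Lpl at 1.81 (1.07 to 2.64). Without mural- or fibroblast-like cells Apod was at 0.97 and Ptgds at 2.18, and without myeloid-like cells Lpl was at 1.26 and Trem2 at -1.95. Thinned to 1000 UMIs a cell, Trem2 was at -0.72 and 2 genes were at least 2-fold higher. Apoe was at -2.02 (-2.07 to -1.96) and Abca1 at -1.29 (-1.65 to -0.94), beside 1.19% astrocyte-like cells in PDGFRa-GFP and 23.9% in hGFAP-GFP. Within astrocyte-like cells Apoe was at 10996 in 38 cells of PDGFRa-GFP (10377 to 11642), against 5900 in 195 cells of hGFAP-GFP (log2 ratio 0.90, interval 0.81 to 0.99). The hGFAP-GFP level depended on the makeup of the class, with 9119 in the Aqp4 cells, 1555 in the Vps8 cells and 8805 for the class at a Leiden resolution of 0.5. Within OPC-like cells it was at 228.6 and 318.4 (log2 ratio -0.48, interval -0.76 to -0.19). The OPC-like clusters of PDGFRa-GFP lay on either side of the hGFAP-GFP level, at 132.1 and 341.4, and alternatives put hGFAP-GFP between 272.3 and 634.5. Strain and age differ together here, so they cannot be told apart.

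C1 cells gave the same genes in whole single cells, in TPM, whose sums differ between cells, so that a set is 1 sample and its cells are not replicates. In PDGFRa-GFP, 4 genes were at least 2-fold higher at P6 than at P3 and 0 were lower, beside 33.9% and 20.5% of 15737 genes. The median log2 ratio of mean TPM plus 1 was 0.95 for the members and 0.32 for all genes. Clu averaged 146.5 TPM at P6 and 20.6 at P3 (log2 ratio 2.77), Abca1 33.3 and 4.85 (2.55), Lpl 21.4 and 8.47 (1.24), Apoe 607.5 and 414.2 (0.55), and Fabp5 454.7 and 608.7 (-0.42). As differences of the mean of log2(TPM + 1) over cells, Apoe was at 3.01 and Fabp5 at -2.05, so that 1 gene was at least 2-fold lower. Lpl was at 10 TPM or more in 69.8% of P6 cells (55.7 to 81.7) and 18.3% of P3 cells (9.52 to 30.4). The median number of genes above 0 was 5591 per cell at P6 and 4124 at P3, and its part in these shares was not tested.

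The sets differ in makeup as well as in age. C1 cells were not clustered, and each took the class with the largest share of its marker list at 10 TPM or more. OPC-like cells were 35 of 53 at P6 and 13 of 60 at P3, where 41 cells were neuronal-like. Within OPC-like cells Apoe averaged 281.0 TPM at P6 and 137.4 at P3, with medians of 84.7 and 0. Lpl averaged 25.2 and 6.87 TPM, and 27 of 35 cells at P6 and 2 of 13 at P3 reached 10 TPM. Clu reached 10 TPM in 12 and 2 of these cells. Apod and Ptgds came from single cells. Apod was at 1481 and 4596 TPM in 2 mural- or fibroblast-like P6 cells and at 4487 in 1 such P3 cell, and 5416 TPM of Ptgds in 1 of the P6 cells made up 80.6% of the sum of that set. Trem2 was at most 0.301 TPM in any PDGFRa-GFP cell and 0 in hGFAP-GFP cells, and the 4 sets showed a mean of at most 0.245 of 28 myeloid markers per cell.

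In hGFAP-GFP, 1 gene was at least 2-fold higher at P4/P6 than at P3 and 2 were lower, beside 25.7% and 26.1% of 12564 genes. The median log2 ratio was -0.34 for the members and 0.02 for all genes. Apoe averaged 1595 TPM at P4/P6 and 3396 at P3 (-1.09), and Clu 374.9 and 1145 (-1.61). Abca1 averaged 35 and 59.1 (-0.74), Fabp5 1143 and 1334 (-0.22), and Lpl 2.8 and 4.18 (-0.45). Ptgds, at 29.8 and 9.23 (1.59), had 69.2% of its P4/P6 sum in 1 cell, and was at 0.98 without the richest cell of each set. Apod and Trem2 were listed at or near 0.

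Astrocyte-like cells were 16 of 61 at P4/P6 and 35 of 49 at P3. Within them the median of Apoe was 4196 TPM at P4/P6 and 3793 at P3, and the cells ranged between 154.8 and 19461 at P4/P6 and between 1.32 and 15284 at P3. The medians of Clu in these cells were 158.9 and 276.1, and those of Abca1 22.2 and 39.9. The ranges overlapped widely for all of these genes. The lower Apoe mean at P4/P6 thus stands beside fewer astrocyte-like cells, whose part in the ratio was not tested.

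**Figure D5:**
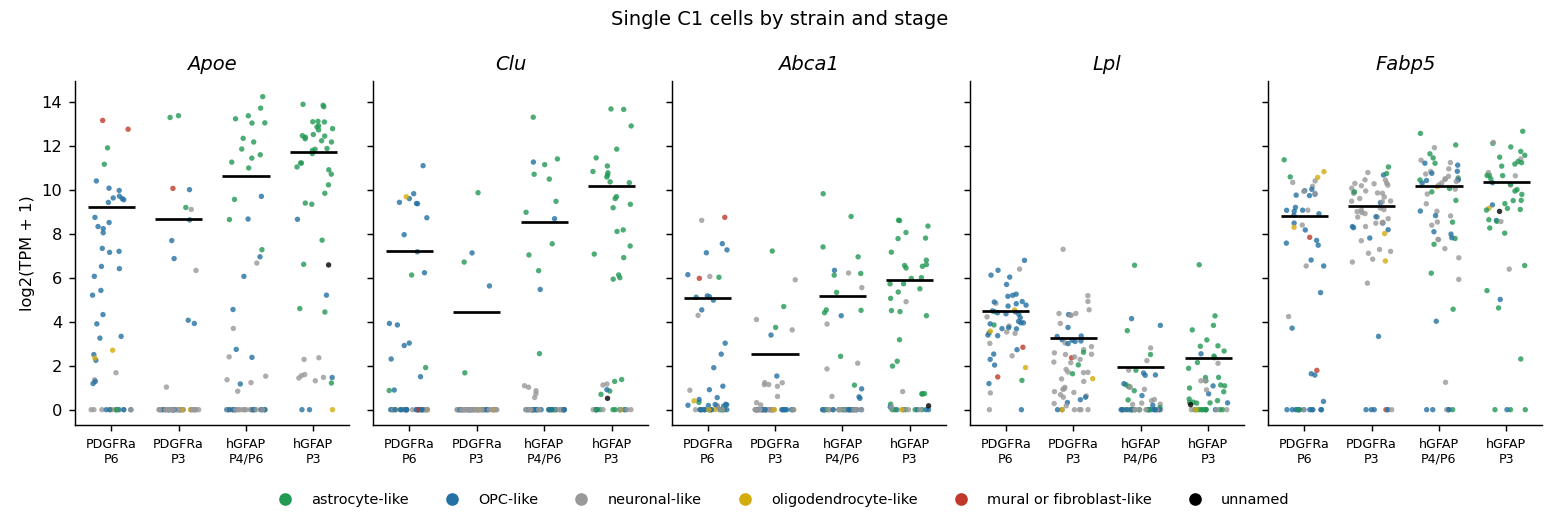
Each point is 1 C1 cell, on a log2 scale of TPM plus 1, coloured by marker-defined class, and the line is the log2 of the set's mean TPM plus 1. Apoe, Clu and Abca1 are high in astrocyte-like cells of hGFAP-GFP, Lpl lies higher in PDGFRa-GFP cells at P6 than at P3, and Fabp5 reaches 10 TPM in most cells of each set.

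A list of 42 other genes of lipid transport, uptake and storage was counted in the same way. Of 39 measured, 11 were at least 2-fold higher at dpi 25 than in PDGFRa-GFP and 5 were lower, beside 16.6% and 16.8% of all genes, with a median log2 ratio of 0.21. The highest was Msr1, a scavenger receptor of macrophages, at 58 against 0.122 CPM, the cortex level from 1 UMI (log2 ratio 8.89, interval 6.41 to 14.19). Apoc4, a small apolipoprotein encoded beside Apoe, was at 8.58 against 0.122. Apoc2, the cofactor of Lpl from the same gene cluster, was at 14 against 0. Its log2 ratio was 5.26 with the 0 set to a floor of 3 UMIs in the library, and the lower end of its exact interval was 4.94. The lowest were Pltp, a phospholipid transfer protein, at 7.19 against 27.3 (-1.93), Lrp8, a receptor of Apoe in neurons, at 25.7 against 68.9 (-1.42), and Slc27a1, a fatty acid transporter, at 8.14 against 20.3 (-1.32).

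Against hGFAP-GFP 10 of 38 list genes were at least 2-fold higher at dpi 25 and 7 lower, beside 17.3% and 20.6% of all genes, with a median of 0.29. Abcg1, a cholesterol transporter that acts beside Abca1, was at 52.1 against 5.48 (3.25, interval 2.65 to 3.92). Angptl4, an inhibitor of Lpl, was at 2.95 against 21.2 (-2.85, interval -3.46 to -2.26). Between PDGFRa-GFP and hGFAP-GFP 3 of 34 were higher and 5 lower, beside 5.03% and 12.8% of all genes, with a median of -0.02. Fabp3, a fatty acid binding protein, was at 19.3 against 6.91 (1.49), and Soat1, which esterifies cholesterol, at 12.4 against 34.3 (-1.47).

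In the C1 cells of PDGFRa-GFP 7 of 30 list genes were at least 2-fold higher at P6 than at P3 and 5 lower, beside 33.9% and 20.5% of all genes, with a median of 0.44. Lcat, which esterifies cholesterol on lipoproteins, averaged 44.5 and 4.68 TPM, and Abca2, a lipid transporter, 21.6 and 0.965. Pnpla2, a lipase of lipid droplets, averaged 5.03 and 24.3. In hGFAP-GFP 1 of 32 was higher at P4/P6 than at P3 and 9 were lower, beside 25.7% and 26.1% of all genes, with a median of -0.43. Lcat averaged 4.34 and 229.1 TPM there, Angptl4 7.58 and 238.0, and Apoc1 was listed at 0 at P4/P6 and averaged 35.3 at P3. Lcat thus differed in opposite directions between the sets of the strains, whose stages are not matched. The sets also differ in makeup by class, and its part in these values was not tested.

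Across the 20 library and class groups of at least 50 cells, which share libraries and depth, the likeness of patterns was read as Pearson's r of log2 levels. Each r rests on these 20 groups, and the closest genes were picked from a search among 9901. Trem2 was closest to Aif1, then Fcer1g and Fcrls at 0.99 each, and Aif1 and Fcer1g were used to name myeloid-like classes. Apoe was closest to Apoc1 at 0.90, then Timp2 and Psap at 0.89 each. Ptgds was closest to Ermn at 0.95, a marker used for oligodendrocytes, and Apod to Tspan17 at 0.96. Clu was closest to Bphl at 0.95, Lpl to Cryba4 at 0.95, Abca1 to Cyba at 0.93, and Fabp5 to Arl8a at 0.80. Among the members, Lpl and Trem2 had the highest value at 0.92, then Abca1 with Trem2 at 0.82 and with Apoe at 0.81, while Apod and Ptgds were at 0.65.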

How the data were processed

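Single-cell libraries were compared by library, C1 set and marker-defined class. Per the submitters' processing notes, Drop-seq reads went through STAR, 10x reads through Cell Ranger and C1 reads through RSEM, all on mm10, and chromatin reads through Bowtie2 and MACS2 2.12, with mm10 and rn5 both named. The authors deposited Drop-seq values as a signal, UMIs scaled to 10000 per cell, from which whole UMI counts were recovered for all values. The deposited 10x values are UMI counts, and the deposited C1 values are TPM, whose depth is unknown. The deposited chromatin list gives a fold enrichment and a -log10 q for each summit of 1 pooled call.

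Summed counts, shares and log2 ratios were computed with exact intervals at 95% (Clopper-Pearson for shares), a floor of 3 UMIs, a minimum of 20 UMIs summed over both libraries for ratios and a mean of 1 TPM in either set with a pseudocount of 1 for C1, in Python 3.11.15. With 1 library per group no test was made. Cells of the droplet libraries were clustered with scanpy 1.11.5 and leidenalg 0.10.2 at resolution 1, leaving out the 8 genes. The naming rule was revised after clusters were seen, so that a tumour-like cluster needs 10 of 20 tumour markers. Scrublet marked 0, 125, 5 and 4 cells of the dpi 25, dpi 35, PDGFRa-GFP and hGFAP-GFP libraries, too few in Drop-seq to have worked, and doublets were kept. The labels give 6796 cells at dpi 25 and 2000 for hGFAP-GFP, where the tables held 4955 and 815. Whether tumour cells were sorted is not clear from the labels.

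Alternatives were other scalings (edgeR 4.0.16 TMM among them), filters, thinning to 1000 UMIs, resolutions and cell sets. The 8 genes and all lists were chosen with earlier results of these data known. Named genes were the members, the 3 highest and 3 lowest of a 42-gene list with at least 100 summed UMIs or a mean of 10 TPM, and the 3 most alike by Pearson's r of log2(CPM + 10) over genes of at least 500 UMIs. One gene named by this rule is not reported here. Calculations were tested on simulated data.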

Additional observations from a re-analysis of the deposited data

How the results depend on the processing

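No paired analysis was possible because each group has 1 library or 1 set and no test was made. Of 168 Drop-seq ratios under alternatives, 118 moved less than their interval, 41 moved more and 9 reversed. Of 80 C1 ratios 25 moved and 1 reversed, and of 712 class levels 96 moved. Of 64 library levels 41 moved out of their counting interval. Alternatives put the PDGFRa-GFP level of Apoe as low as 353.0, against 446.2, and that of Ptgds as low as 110.0, against 179.3. The causes were not tested.

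Thinned to 1000 UMIs a cell, Ptgds at dpi 25 over PDGFRa-GFP was at 0.01 with 0 members at least 2-fold lower, Apoe at dpi 25 over hGFAP-GFP at -0.09, and Trem2 in PDGFRa-GFP over hGFAP-GFP at -0.72 with 2 members higher. Without choroid plexus-, ependymal- and erythroid-like clusters Clu was at 0.23 at dpi 25 over PDGFRa-GFP, and 0 members were lower over either cortex library. Without myeloid-like clusters Apoe was at -1.05 over PDGFRa-GFP, with 3 members higher and 2 lower, and at -3.25 over hGFAP-GFP, with 2 lower, and Trem2 in PDGFRa-GFP over hGFAP-GFP was at -1.95. Ptgds at dpi 25 over PDGFRa-GFP was at 1.13 without mural- or fibroblast-like clusters and 0.70 without the richest cell.

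With no filter and with at least 100 UMIs, genes at least 2-fold higher at dpi 25 than in PDGFRa-GFP numbered 5097 and 1503, and lower ones 5469 and 1444. Genes lower at dpi 25 than in hGFAP-GFP numbered 7917 and 1522. In PDGFRa-GFP over hGFAP-GFP the higher genes numbered 1195 and 343 and the lower ones 6190 and 684. As means of log2(TPM + 1), 1 member, Fabp5, was lower at P6 than at P3 in PDGFRa-GFP, and in hGFAP-GFP Ptgds was at -0.02 with 0 members higher, as also without the richest cell of each set. With a -log10 q of at least 10, 2 members had an open interval.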
